A study of Homo sapiens with 7 samples.

Results

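The regions described here are the vehicle-only accessible regions of LUHMES-derived neurons: stretches of open chromatin that, in lists cut to the length of the shortest one, stood in the list of each vehicle library and in that of no stressed library. LUHMES is an established line of immortalised human mesencephalic cells, here differentiated for 6 days in medium with GDNF, dbcAMP and tetracycline and labelled as wild-type dopaminergic neurons. The stressed cells were kept for 8 hours with 25 µM antimycin A, which blocks respiratory complex III, and 10 µM oligomycin, which blocks the ATP synthase of mitochondria, and the vehicle cells with DMSO. The 4 stressed libraries came from differentiations 6, 7, 8 and 9 and the 3 vehicle libraries from differentiations 6, 7 and 8, all of them separate batches of this 1 cell line. ATAC-seq maps open chromatin as the DNA that a transposase can reach, and each library has its own list of peaks.

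The members were chosen by the measured fold enrichment of regions, as the authors' peak caller gave it: each list was ranked on it and as many regions were kept as the shortest list, that of vehicle 7, holds. The 7 equal-size lists merged into 62514 union regions. Of these, 231 (0.37%) were present in all 3 vehicle lists and no stressed list, and 488 (0.781%) in all 4 stressed lists and no vehicle list. Presence in these lists chose the members, so the ranks and enrichments below describe them and test nothing. A region outside an equal-size list ranked lower within its library and was not necessarily closed.

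Open chromatin away from gene starts is, as background, where enhancers, insulators and unused promoters lie. Enhancers are bound by cell-type and signal-dependent transcription factors and are known to act on genes that can lie far along the chromosome. In neurons many such elements lie in the introns of long genes for adhesion molecules, guidance receptors and ion channels. In bulk libraries, fewer cells with an open region and less opening per cell cannot be told apart.

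The libraries differed in depth and in list length, and these differences touch every value below. The deposited lists held 53063 to 248900 regions in the stressed libraries and up to 159902 in the vehicle libraries. The genome background that the fold enrichments imply was 2.18, 5.99, 0.816 and 1.5 fragments in stressed libraries 6, 7, 8 and 9, and 0.492, 0.611 and 1.43 in vehicle libraries 6, 7 and 8. At the limit of its equal-size list a region had 27, 41, 7 and 10 fragments at its summit in stressed libraries 6, 7, 8 and 9. It had 6, 5 and 21 in vehicle libraries 6, 7 and 8. Divided by the background, these limits came to 12.4, 6.84, 8.58 and 6.67 in the stressed libraries and 12.2, 8.18 and 14.6 in the vehicle libraries, so a list place demanded a different enrichment in each library. Of 15 markers of dopaminergic neurons, 8 had a region within 1 kb of a gene end in all 4 stressed lists and 5 in all 3 vehicle lists. No equal-size list held a region at an end of TH (tyrosine hydroxylase) or SLC18A2 (the vesicular monoamine transporter), both defining genes of dopamine neurons. The same held for DDC, LMX1B and ALDH1A1, while all 7 lists held a region at NR4A2, PITX3, EN1, RET and DRD2. Of 12 pan-neuronal markers, 11 were open in every stressed and 9 in every vehicle list. For other cell types, 7 and 4 of 10 progenitor markers, 3 and 1 of 10 glial markers and 3 and 1 of 8 mesenchymal and endothelial markers were open in every stressed and every vehicle list. Their part in the results was not tested.

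Sequence could be shown for members that reach an annotated gene start or microRNA. The tables of RefSeq sequences on GRCh38.p14, the same build as the hg38 positions of the files, held the start windows of 10 transcripts that overlap a member. The 250 bases before the start are given 5′ to 3′ on the strand of the gene for the coding genes CDH8, CHRNA10 and RFX4 and for KCNH7-AS1, because these are the starts where a vehicle-only region meets a gene that the results name. Capitals mark motif matches, searched on both strands. The letters searched were CCAAT for the CAAT box and GGGCGG for the GC box. For the TATA box they were TATAAA, for the cyclic AMP response element, or CRE, TGACGTCA, and for the AP-1 element TGAGTCA. No motif contains another.
CDH8 first start, chr16:62036439-62036688, minus strand: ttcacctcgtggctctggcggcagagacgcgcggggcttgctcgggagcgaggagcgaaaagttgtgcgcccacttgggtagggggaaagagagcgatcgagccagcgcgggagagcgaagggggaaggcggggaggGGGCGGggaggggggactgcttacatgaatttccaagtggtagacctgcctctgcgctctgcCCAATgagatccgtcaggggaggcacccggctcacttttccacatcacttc
CDH8 second start, chr16:62035187-62035436, minus strand: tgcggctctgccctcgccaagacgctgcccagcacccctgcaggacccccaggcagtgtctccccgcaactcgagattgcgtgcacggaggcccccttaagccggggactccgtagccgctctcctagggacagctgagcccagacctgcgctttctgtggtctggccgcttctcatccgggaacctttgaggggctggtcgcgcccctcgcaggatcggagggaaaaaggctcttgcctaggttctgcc
CHRNA10, chr11:3671385-3671634, minus strand: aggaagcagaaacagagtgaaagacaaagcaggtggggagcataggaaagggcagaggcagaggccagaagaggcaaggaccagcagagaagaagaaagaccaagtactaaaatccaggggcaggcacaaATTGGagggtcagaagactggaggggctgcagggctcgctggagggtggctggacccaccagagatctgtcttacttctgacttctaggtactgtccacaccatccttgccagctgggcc
RFX4, chr12:106600898-106601147, plus strand: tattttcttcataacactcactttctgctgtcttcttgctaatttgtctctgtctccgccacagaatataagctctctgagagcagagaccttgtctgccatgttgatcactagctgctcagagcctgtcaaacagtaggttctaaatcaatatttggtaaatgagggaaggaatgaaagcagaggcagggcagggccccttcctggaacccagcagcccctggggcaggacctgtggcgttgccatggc
KCNH7-AS1, chr2:162768686-162768935, plus strand: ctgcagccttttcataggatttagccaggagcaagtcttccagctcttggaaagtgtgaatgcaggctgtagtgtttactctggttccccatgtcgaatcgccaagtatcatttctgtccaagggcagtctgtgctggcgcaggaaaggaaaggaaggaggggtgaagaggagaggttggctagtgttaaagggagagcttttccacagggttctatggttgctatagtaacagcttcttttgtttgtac

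The CDH8 windows had the composition of a CpG-rich promoter and the others did not. GC content was 64.0% and 66.0% at the CDH8 starts, with 19 and 17 CpG dinucleotides, and the median over 22132 coding promoters of the same length was 62.0% with 16. It was 55.2% with 1 CpG at CHRNA10, 49.6% with 2 at RFX4 and 48.0% with 3 at KCNH7-AS1. The first CDH8 window held 1 GC box and 1 CAAT box and the CHRNA10 window 1 CAAT box. No match was found in the second CDH8 window or in those of RFX4 and KCNH7-AS1. Among coding promoters, 53.7% held a GC box, 32.7% a CAAT box, 9.00% a TATA box, 2.02% a CRE and 3.45% an AP-1 motif. Within each window, 250 bases lay inside the member, except at CHRNA10, where 146 did.

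A further member held a microRNA locus. The region inside FASTKD2 spans MIR3130-1 and MIR3130-2, which lie on opposite strands of the same DNA and give the same mature arms. Their sequences are given as RNA with the seed, bases 2 to 8, in capitals.
hsa-miR-3130-5p: uACCCAGUcuccggugcagcc
hsa-miR-3130-3p: gCUGCACCggagacuggguaa

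In the vehicle libraries the members were regions of middle to low rank. Their median rank was 20144, 20540 and 24739 in vehicle libraries 6, 7 and 8, and the best rank that any member reached was 5562, 3583 and 11323. Only 5 members stood in the first 50% of all 3 vehicle lists. At the summit they had a median of 8 fragments in vehicle 6 (range 6 to 17), 7 in vehicle 7 (5 to 17) and 26 in vehicle 8 (21 to 43). Counting error is wide at such depths: the exact 95% Poisson interval of 7 fragments runs from 2.81 to 14.4 and that of 26 from 17.0 to 38.1, and PCR copies are not independent molecules. In 69 members at least 1 vehicle value sat at the limit of its list. In vehicle 6 and 8, regions tied at the limit were kept or left out by width, then position. The list of vehicle 7 was kept whole, so its limit, where 19 members sat, was the lowest fold of the deposited list.

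**Figure D1:**
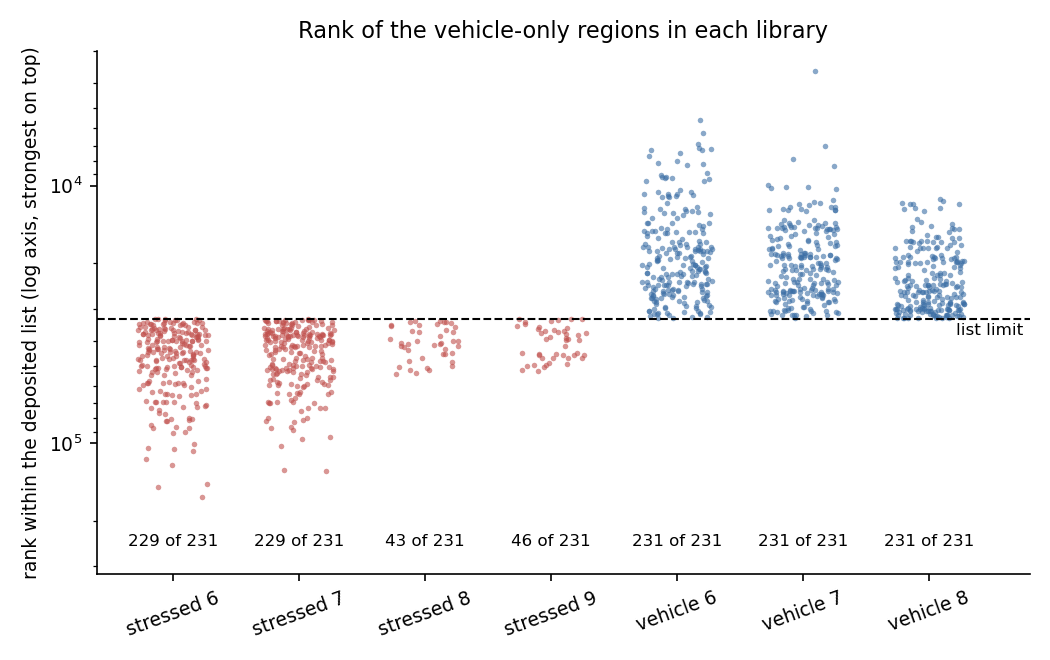
Rank of each of the 231 vehicle-only regions within the deposited list of each library, on a log axis with the strongest rank on top; each point is a region, the dashed line is the limit of the equal-size lists, and the numbers give how many of the 231 each deposited list holds. Nearly all overlap a region below the line in stressed libraries 6 and 7 (229 each), and 43 and 46 do so in the shorter lists of stressed 8 and 9.

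Almost every member overlapped a called region of stressed cells, at a lower rank. In the lists as deposited, 230 of the 231 overlapped a region of at least 1 stressed library. The stressed libraries 6, 7, 8 and 9 held 229, 229, 43 and 46 of them (99.1%, 99.1%, 18.6% and 19.9%). The first pair of libraries has the long lists and the second pair the short ones. The same shares over all union regions were not computed, so whether these are particular to the members was not tested. An overlap of 1 bp was enough, so the summit of the stressed region need not lie inside the member. With summits widened by 100 bp either way in place of whole regions, 46 of 272 vehicle-only regions overlapped none of any stressed deposited list. Where listed, the members had a median of 21 fragments in stressed 6 (range 10 to 27), 35 in stressed 7 (20 to 41), 6 in stressed 8 (5 to 7) and 9 in stressed 9 (7 to 10). The upper ends equal the list limits, and 42 members were tied with the limit in at least 1 stressed library.

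Many members missed a stressed list by a small margin. The best rank that a member reached in any stressed library had a median of 38552 and ran from 32841 to 90129 over the 230 listed members. Lists longer by a factor of 1.25 (41035 regions) would take 151 of the members into at least 1 stressed list, and lists longer by a factor of 1.5 (49242 regions) would take 194. At a factor of 2 (65656 regions) 13 members would still be in no stressed list. The lists of stressed 8 and 9 end before that rank. These counts were not computed for other union regions, so whether such margins are particular to the members was not tested.

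Expressed as summit fragments over the genome background, members were lower in the stressed libraries. The median was 9.63, 5.84, 7.35 and 6.01 in stressed libraries 6, 7, 8 and 9, among listed members only, and 16.3, 11.4 and 18.1 in vehicle libraries 6, 7 and 8. Within differentiation 6, 228 of 229 members listed in both libraries were lower in the stressed one, with a median ratio of stressed to vehicle of 0.548. Within differentiation 7 it was 229 of 229, with a ratio of 0.466, and within differentiation 8 it was 43 of 43, with a ratio of 0.397. The rule requires a lower place in the stressed lists, so these ratios carry no test. The limit of stressed 6 (12.4) lay above those of vehicle 6 (12.2) and vehicle 7 (8.18). There were 46 members whose enrichment in stressed 6 was at or above the lowest of their 3 vehicle values, so the groups overlapped there.

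**Figure D2:**
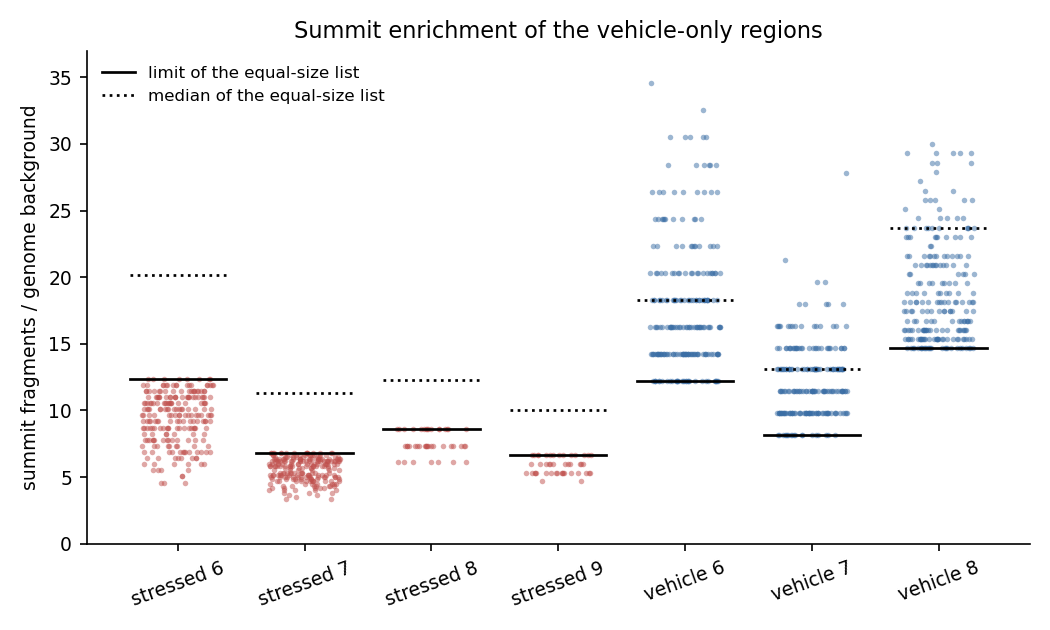
Fragments at the summit divided by the genome background for each vehicle-only region (points) in each library that lists it; solid lines mark the limit and dotted lines the median of the equal-size list. Points fall at or under the solid line in all 4 stressed libraries, with 8, 16, 16 and 14 of them on it, and at or above it in the 3 vehicle libraries, with vehicle medians of 16.3, 11.4 and 18.1.

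The 12 members that ranked best across the vehicle lists, ordered by the worst of their 3 vehicle ranks, began with IGSF11, NFASC and BACH1. The leading region lay nearest to IGSF11, an immunoglobulin-like cell adhesion gene, inside a lncRNA gene on chromosome 3 (118743919 to 118744892, 155665 bp from the gene end). It had 23 and 37 summit fragments in stressed 6 and 7, was not listed in stressed 8 and 9, and had 14, 10 and 42 in vehicle 6, 7 and 8. Over the background this was 10.6 and 6.17 in the stressed libraries that list it and 28.5, 16.4 and 29.3 in the vehicle libraries. The groups did not overlap, which held for 184 of the 230 members that a stressed library lists. For stressed 7 and 9 the rule requires it, since their limits lie below those of all vehicle lists. The same share over other union regions was not computed. The second region lay inside NFASC, which encodes neurofascin, an adhesion molecule of the axon initial segment (chromosome 1, 204859780 to 204860673). Its fragments numbered 25 and 39 in stressed 6 and 7 and 13, 9 and 41 in vehicle 6, 7 and 8, or 11.5 and 6.51 against 26.4, 14.7 and 28.6 over the background. A region of a stressed equal-size list lay 305 bp away from it.

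The third region lay 61108 bp from BACH1, the gene of a haem-sensitive repressor of antioxidant genes (chromosome 21, 29423002 to 29424046, outside genes). It had 19 and 37 fragments in stressed 6 and 7 and 11, 9 and 37 in vehicle 6, 7 and 8. The region nearest to ADAM7, 102442 bp away on chromosome 8 (24612007 to 24612382), had 24 and 36 against 10, 9 and 38. The raw counts of the groups overlap in both regions, and stressed 6 and 7 have the deepest backgrounds. Divided by the background, every listed stressed value lay below every vehicle value in both, as in most members.

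The regions at places 5 and 7 lay inside FASTKD2 and FBXL4. FASTKD2 encodes an RNA-binding protein of mitochondria, and its intragenic region (chromosome 2, 206782918 to 206783431) is the one with the microRNA arms shown above. It had 20, 30 and 7 fragments in stressed 6, 7 and 9, was not listed in stressed 8, and had 15, 9 and 35 in vehicle 6, 7 and 8. Its summits in the 3 vehicle libraries lay within 5 bp of each other. FBXL4 encodes a mitochondrial F-box protein that restrains mitophagy, and the region inside it (chromosome 6, 98880461 to 98881100) had 26 and 40 fragments in stressed 6 and 7 against 9, 9 and 33 in the vehicle libraries. Over the background the FBXL4 values were 11.9 and 6.67 against 18.3, 14.7 and 23.02.

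The next members lay outside genes. The region nearest to NDN, the imprinted neuronal gene of necdin, lay 110308 bp away (chromosome 15, 23797613 to 23798204). It had 16, 34 and 6 fragments in stressed 6, 7 and 8 and 11, 11 and 34 in vehicle 6, 7 and 8. The region nearest to DTNBP1, the dysbindin gene, lay 208144 bp away (chromosome 6, 15871202 to 15871755) and had 23, 35 and 8 in stressed 6, 7 and 9 and 9, 9 and 36 in the vehicle libraries. The region 44365 bp from the splicing factor gene BUD13 (chromosome 11, 116703282 to 116703808) had 26, 33 and 6 in stressed 6, 7 and 8 and 9, 13 and 42 in the vehicle libraries. For the region 191397 bp from the ribosomal protein gene RPL38 (chromosome 17, 74011918 to 74012281) the counts were 27, 39 and 7 against 9, 8 and 33. In stressed 6 and 8 the RPL38 region was tied with the limit.

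GRIK2, which encodes a subunit of kainate-type glutamate receptors, held the eleventh region (chromosome 6, 102035274 to 102035831, inside the gene of 676.4 kb). It had 24 and 38 fragments in stressed 6 and 7 and 15, 11 and 32 in vehicle 6, 7 and 8, or 11.0 and 6.34 against 30.5, 18.0 and 22.3 over the background. The 3 vehicle summits lay within 1 bp. The last of the 12 lay inside a lncRNA gene on chromosome 12 (126756926 to 126758374, nearest coding locus LOC107984449) and had 20 and 29 fragments in stressed 6 and 7 against 8, 9 and 35 in the vehicle libraries.

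**Figure D3:**
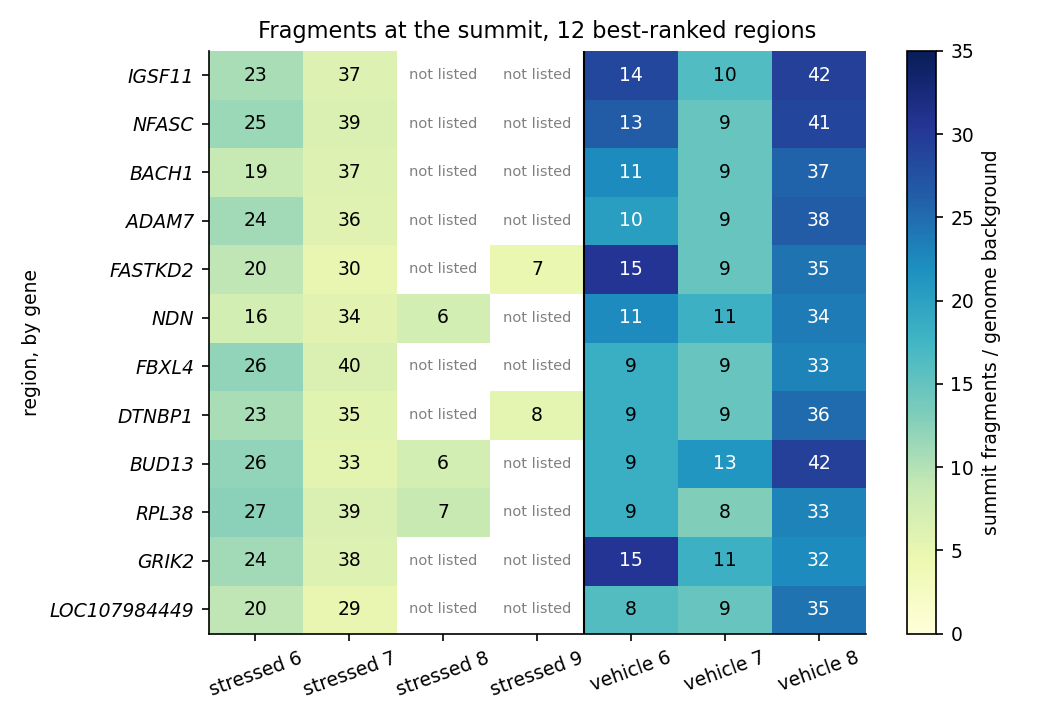
Fragments at the summit (numbers) and their ratio to the genome background (colour) for the 12 vehicle-only regions with the best worst rank over the vehicle libraries, by gene; stressed libraries stand left of the line and vehicle libraries right of it. The IGSF11 region has 23 and 37 fragments in stressed 6 and 7 and 14, 10 and 42 in the vehicle libraries, and most regions are not listed in stressed 8 and 9.

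Vehicle-only regions were mostly distal. Of the 231, 7 (3.03%) lay within 1 kb of an end of a protein-coding gene, against 29.3% of stressed-only regions, 12.3% of the 2478 regions in all vehicle and 1 to 3 stressed lists, 57.3% of the 14330 regions in all 7 lists and 21.8% of all union regions. Counted from the coding starts in the RefSeq promoter table, with chromosome 8 not used here, 4 of 221 vehicle-only regions (1.81%) and 19.0% of all union regions lay within 1 kb. More than 100 kb from every gene end lay 80 (34.6%) of the vehicle-only regions, 12.5% of the stressed-only regions, 29.0% of those in all vehicle and some stressed lists, 10.6% of those in all 7 and 23.2% of all union regions. The median distance to a gene end was 59849 bp for the members and 21192 bp for all union regions. Regions are not independent replicates and were not tested against each other. The classes were not matched for rank, and the part of rank was not tested. Of all union regions, 54.7% lay at gene ends with 8207 regions kept per library and 21.8% at full length. Width differed between these classes as well, and its part was not tested. The median was 645 bp for vehicle-only regions, 1434 bp for stressed-only regions and 1922 bp for those in all 7 lists. It was 1161 bp for those in all vehicle and 1 to 3 stressed lists and 806 bp for all union regions. The gene-end count changed when each region was replaced by its summit widened by 100 bp either way. Of 272 vehicle-only regions found so, 31 lay within 1 kb of a gene end and 82 over 100 kb from every gene end. The shares of the other classes were not computed with these windows.

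Just under 50% of the members lay inside coding genes, and these genes were long. A protein-coding gene held 114 members (49.4%) and 54.8% of all union regions, a lncRNA gene alone held 25 (10.8%), and 92 (39.8%) lay in neither. The host genes had a median length of 220.0 kb for vehicle-only regions, 60.4 kb for stressed-only regions, 156.3 kb for those in all vehicle and 1 to 3 stressed lists and 103.3 kb for all union regions. Genes over 500 kb held 22 members (9.52%), 2.05% of stressed-only regions, 8.27% of those in all vehicle and 1 to 3 stressed lists and 6.59% of all union regions. A further 68 members lay in genes of 100 to 500 kb and 24 in shorter ones.

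**Figure D4:**
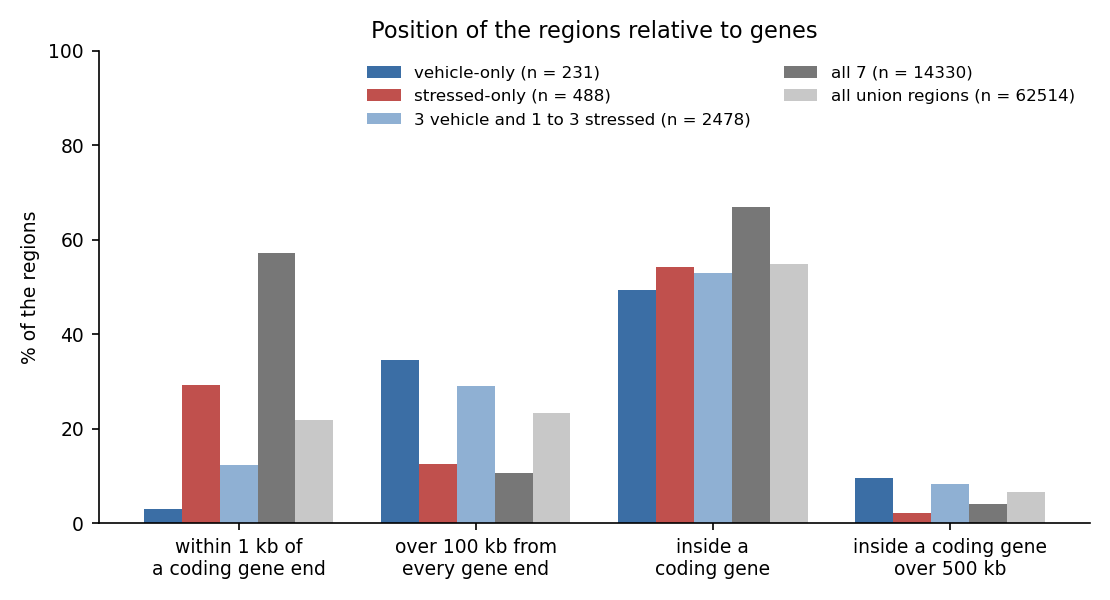
Share of regions (%) within 1 kb of a coding gene end, over 100 kb from every gene end, inside a coding gene and inside a coding gene over 500 kb, for vehicle-only regions, stressed-only regions, regions in all vehicle and 1 to 3 stressed lists, regions in all 7 lists and all union regions. Vehicle-only regions have 3.03% in the first group and 34.6% in the second, against 21.8% and 23.2% of all union regions.

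The whole equal-size lists, which contain the members, were compared library by library. On average 35.4% ± 0.845 of a stressed list and 32.3% ± 1.52 of a vehicle list lay within 1 kb of a gene end (SD, n = 4 and 3). Over 100 kb from every gene end lay 16.3%, 16.7%, 14.5% and 16.3% of the lists of stressed 6, 7, 8 and 9 and 23.1%, 17.5% and 18.2% of those of vehicle 6, 7 and 8, a difference of -3.59 percentage points. Each vehicle library lay above each stressed library in the distal share and below each in the gene-end share. For either share the exact permutation test gave p = 0.0286 (two-sided, n = 4 and 3), and 35 ways to assign the labels allow no smaller value. Both differences changed direction in the lists as deposited, to -5.09 percentage points at gene ends (exact permutation p = 0.6, n = 4 and 3) and 0.582 in the distal share (p = 0.914). Neither passed at equal span (exact permutation p = 0.0857 and 0.0571), nor did that at gene ends with summit windows (p = 0.0857). Without vehicle 6 the distal difference was -1.85 percentage points (exact permutation p = 0.0667, n = 4 and 2, the smallest possible there). With labels exchanged only within differentiations, the replicate block, it was -3.71 percentage points and that at gene ends 3.17 (exact permutation p = 0.25 each, the smallest that 3 pairs allow). The median width of the lists was 898 ± 409 bp in the stressed and 554 ± 283 bp in the vehicle libraries (exact permutation p = 0.257, two-sided, n = 4 and 3), a difference smaller than the stressed SD.

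The 7 members at gene ends included 3 with a coding start within 1 kb. At CDH8, which encodes cadherin 8, a neuronal cell adhesion protein, the region (chromosome 16, 62034926 to 62037041) covered the first start of the gene and the CpG-rich windows printed above. It had 24, 40 and 8 fragments in stressed 6, 7 and 9, was not listed in stressed 8, and had 10, 10 and 21 in vehicle 6, 7 and 8. Divided by the background this was 11.0, 6.67 and 5.34 against 20.3, 16.4 and 14.6, with no overlap, as in most members. In vehicle 8 it sat at the list limit. The vehicle summits spread over 473 bp, more than at any other gene-end member.

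CHRNA10 encodes a nicotinic acetylcholine receptor subunit, and its region lay 105 bp upstream of the gene (chromosome 11, 3671489 to 3672174). It had 23 and 31 fragments in stressed 6 and 7 and 9, 8 and 21 in vehicle 6, 7 and 8, again at the limit in vehicle 8. MS4A10, a gene of the membrane-spanning 4-domain family, had its region 249 bp from the start (chromosome 11, 60785582 to 60786515), with 22 and 37 against 7, 9 and 22. The other 4 lay at the far end of a gene or over 1 kb from a start. These were DCLRE1B, which encodes a telomere nuclease (23 and 32 against 11, 7 and 35), SMIM29 (24, 37 and 7 in stressed 6, 7 and 8 against 6, 7 and 33), SUSD6 (20, 30 and 8 in stressed 6, 7 and 9 against 7, 6 and 22) and a region inside MAML3, a Notch coactivator gene, 289 bp from an end of MGST2 (16 and 24 against 7, 8 and 26).

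RFX4, which encodes a transcription factor of the developing nervous system, had a member over an internal start of the gene, 17736 bp from its nearest end (chromosome 12, 106600740 to 106601906). It had 22, 40 and 6 fragments in stressed 6, 7 and 8 and 7, 9 and 24 in vehicle 6, 7 and 8. KCNH7, the gene of a voltage-gated potassium channel, held a member over the start of the antisense transcript KCNH7-AS1 (chromosome 2, 162768640 to 162769196), with 22 and 41 against 9, 6 and 34. In stressed 7 the KCNH7 region was tied with the limit.

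Genes were assigned to members where they held the region or had the nearest end within 100 kb. By that rule 172 of 19974 protein-coding genes (0.861%) had a vehicle-only region and 417 (2.09%) a stressed-only region. The lists of genes for neuronal wiring had 3 of 36 axon guidance genes, 2 of 48 synaptic adhesion genes, 2 of 26 cadherin and protocadherin genes, 1 of 39 glutamate and GABA receptor genes and 1 of 35 voltage-gated channel genes. Stressed-only regions were assigned to 3, 0, 0, 0 and 1 genes of these lists. The median gene length was 270.3, 665.5, 179.0, 239.0 and 346.0 kb in these lists and 24.2 kb over all genes, so they offer more sequence for a region to lie in. The part of length in these counts was not tested.

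The axon guidance members lay inside DCC, EFNA5 and PLXNA2. DCC encodes a netrin receptor, and its region (chromosome 18, 52979765 to 52980262, in the gene of 1196 kb) had 10 and 26 fragments in stressed 6 and 7 and 8, 6 and 31 in vehicle 6, 7 and 8. Over the background it was at 4.59 and 4.34 against 16.3, 9.81 and 21.6, and its best stressed rank was 69209. EFNA5 encodes a membrane-bound ephrin ligand and had 21 and 31 against 9, 5 and 42 (chromosome 5, 107531327 to 107532787), at the limit in vehicle 7. PLXNA2 encodes a semaphorin co-receptor and had 21, 30 and 10 in stressed 6, 7 and 9 against 9, 6 and 21 (chromosome 1, 208167240 to 208167946), at the limit in stressed 9 and in vehicle 8.

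The adhesion genes DSCAM and LSAMP each held a member. DSCAM encodes a homophilic adhesion molecule of the immunoglobulin family, and its region (chromosome 21, 40018928 to 40019402) had 21 and 27 fragments in stressed 6 and 7 and 8, 8 and 33 in the vehicle libraries. LSAMP encodes a limbic adhesion protein, and its region (chromosome 3, 116187924 to 116188721) had 23 and 36 against 10, 6 and 37. IGSF11 belongs to the same list, but its region lay beyond 100 kb and was not counted. CDH11, a cadherin gene, had its region 78246 bp away (chromosome 16, 64865028 to 64865507), with 17 and 37 against 7, 8 and 23.

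Of the remaining lists, APP and AQP4 were the genes assigned. APP, the amyloid precursor gene, was 1 of 13 genes of its family and the secretases, and the intragenic region (chromosome 21, 26107493 to 26108018) had 22 and 34 fragments in stressed 6 and 7 against 11, 10 and 31 in the vehicle libraries. Over the background APP was at 10.1 and 5.67 against 22.4, 16.4 and 21.6, with no overlap, as in most members. AQP4, the astrocyte water channel gene, was 1 of 10 glial markers, and its region lay 68344 bp away (chromosome 18, 26783139 to 26783694), with 12 and 28 against 10, 9 and 25. No vehicle-only region was assigned to any of 32 genes of the integrated stress response, 20 of oxidative stress, 26 of mitophagy and Parkinson disease, 15 dopaminergic, 12 pan-neuronal, 10 progenitor, 8 mesenchymal and endothelial or 18 immediate early genes, where the share over all genes was 0.861%. Stressed-only regions were assigned to 3, 3, 1, 2, 1, 0, 1 and 1 genes of these 8 lists, where the share over all genes was 2.09%.

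Members were spread over all chromosomes that were kept. The share of union regions that were vehicle-only was highest on chromosome 13 (8 of 1177, 0.680%) and chromosome 18 (8 of 1240, 0.645%), followed by chromosome 4 (18 of 3182, 0.566%). It was lowest on chromosome 19 (1 of 2288, 0.0437%) and chromosome 22 (1 of 1086, 0.0921%). Neighbouring members lay less than 1 Mb apart in 18 cases and less than 100 kb apart in 4. Groups of 3 occurred at 2 loci. On chromosome 5, regions at 71839188 and 71892597 lay nearest to CARTPT, a neuropeptide gene, and a further one at 72599656 nearest to ZNF366. On chromosome 20, RIN2 held a region at 19779756 and CFAP61 held a pair at 20251322 and 20317142. IGF2BP2, CMIP, EPHA3 and LOC124903233 were the other genes named by a pair of members.

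The rule did not use the position of the summit within a member, but it asks for a region of each vehicle library there, which limits how far apart summits can lie. The 3 vehicle summits lay within 100 bp of each other in 119 members (51.5%), with a median spread of 99 bp and a largest of 1357 bp. The spread had a median of 89 bp in regions of all vehicle and 1 to 3 stressed lists and of 111 bp in regions of all 7 lists. In 6 members the summits agreed within 10 bp. By the rule no member overlaps a region of a stressed equal-size list. Of the members, 10 lay within 1000 bp of such a region, 66 within 10000 bp and 209 within 100000 bp, and the median distance was 20270 bp. These distances were not computed for other union regions.

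Which regions were vehicle-only depended on the length at which lists were compared. At 50% of the length 245 union regions were vehicle-only, and 5 of them were among the 231. These 5 were the regions of IGSF11, NFASC, BACH1, ADAM7 and FASTKD2, those in the first 50% of every vehicle list. At 75% of the length 244 were vehicle-only, of which 68 were among the 231, and at 87.5% of it 235, of which 133 were. Of the 245 at the shorter length, 240 lay in at least 1 stressed list of full length. Stressed-only regions numbered 244 at 50% of the length and 488 at full length. At each of 7 list lengths, from 25% of the full length upward, the vehicle-only regions had 34.1% to 37.2% of their number over 100 kb from every gene end. For all union regions this share was 23.2% at full length and was not computed at the other lengths. The share of vehicle-only regions at gene ends was 9.85% at the shortest length and 2.44% to 4.26% at the 6 others, and that of all union regions 54.7% at the shortest and 21.8% at the longest.

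**Figure D5:**
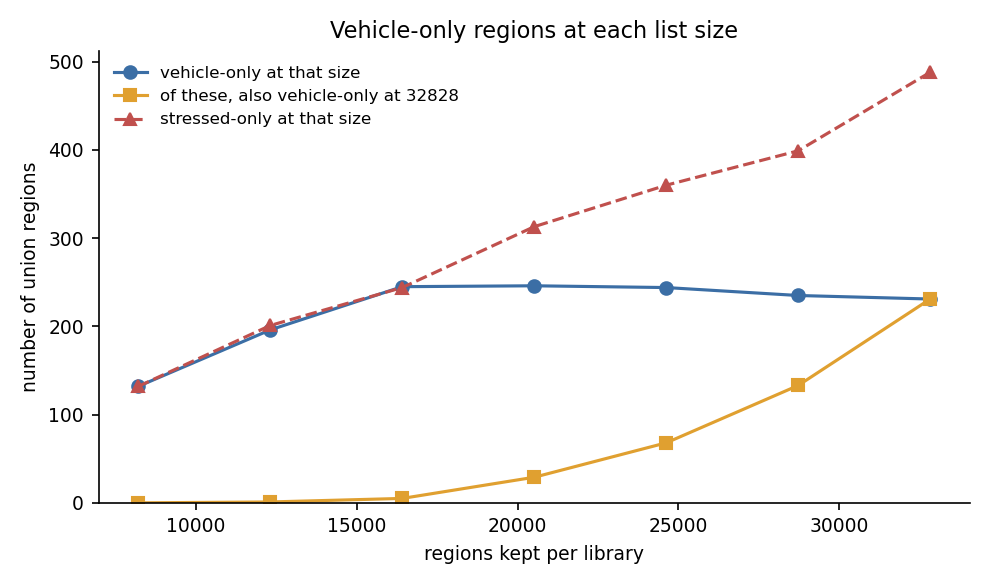
Number of union regions that were vehicle-only (circles), number of these that were also vehicle-only at full length (squares) and number that were stressed-only (triangles), by the number of regions kept per library. Vehicle-only regions number 132 at 8207 regions and 231 at full length, and at 50% of it 5 of 245 are shared with the 231.

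The values on either side of the limits were close. The weakest members were those of CRIM1, ARHGAP12 and PALM2AKAP2, with a worst vehicle rank of 32741, 32721 and 32713. The members closest to a stressed list were those of FANCB, RWDD3 and HNRNPA1L3, with a best stressed rank of 32841, 32847 and 32867. Just outside, the regions of RNF17, CCDC157 and MYC were in all 3 vehicle lists and in 1 stressed list each, at rank 32766 in stressed 7, 32755 in stressed 9 and 32754 in stressed 7.

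A single member overlapped no region of any stressed deposited list. It lay inside ATP8A2, which encodes a neuronal phospholipid flippase (chromosome 13, 25686844 to 25687625), and had 9, 7 and 30 fragments in vehicle 6, 7 and 8. The region nearest to MC3R, a melanocortin receptor gene (chromosome 20, 56163811 to 56164428), was listed in stressed 6 alone, with 13 fragments there against 9, 6 and 26 in the vehicle libraries. The region nearest to the protease gene PRSS58 (chromosome 7, 142478414 to 142478940) was listed in stressed 7 alone, with 38 against 6, 6 and 25. The other members with a low place in the stressed lists included those of VRK2, NBAS, TP53BP2 and ZRANB2, with a best stressed rank of 88962, 82297, 82218 and 74937. In these 4, stressed 6 had 10 to 14 fragments and stressed 7 had 20 to 25. For TP53BP2 the counts were 14 and 20 in stressed 6 and 7 and 7, 17 and 25 in vehicle 6, 7 and 8, so vehicle 7 stood highest there once divided by its background.

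At the other end, 10 members were in all 4 stressed deposited lists. They were the regions of LRIG2, CFAP44, DCLK2, IFNA1, ANO3, AACS, DCLK1, NECAB2, JAG1 and FANCB. JAG1, the gene of a Notch ligand, had 25, 35, 6 and 8 fragments in stressed 6, 7, 8 and 9 and 6, 11 and 22 in vehicle 6, 7 and 8 (chromosome 20, 10644374 to 10645254, inside the gene). DCLK1, the gene of a doublecortin-like kinase of neurons, had 15, 39, 7 and 8 against 8, 7 and 29 (chromosome 13, 35984647 to 35985690). ANO3 was tied with the limit in all 4 stressed libraries, at 27, 41, 7 and 10 fragments, against 13, 8 and 26 in the vehicle libraries (chromosome 11, 26554467 to 26554825).

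Listed in stressed 6, 7 and 8 but not 9 were 33 members. Of these, members inside genes lay in CHRNB2, KIAA2012, IGF2BP2, MYO10, SMIM29, VWC2, TRAPPC9, ARHGAP12, ITPR2, PCED1B, RFX4, ADCK1, CMIP, ZNF469, MLLT1 and RIN2. Those outside coding genes lay nearest to ACTR3, TSN, GPD2, ADAMTS9, SMARCA5, TTC29, TRIML1, PLK2, GEM, BRINP1, ZWINT, BUD13, SLC16A7, TMPO, TUBA3C, NDN and RPL38. Listed in stressed 6, 7 and 9 but not 8 were 36 members. Of these, members inside genes lay in JAK1, PLXNA2, GALNT13, FASTKD2, TAFA1, NOCT, GTF2IRD1, COL22A1, CCNY, SUSD6, CDH8, GAS7 and VSTM2L. Those outside coding genes lay nearest to RWDD3, TNR, RAB4A, MT1HL1, HAAO, ASB3, GYPC, SLC39A10, KCNMB2, LOC124900752, CDH18, MAN2A1, EPB41L4A, DTNBP1, SDK1, IGFBP3, SAMD9, GPR158, LRRC4C, WDR72, HNRNPA1L3, APCDD1 and SLC2A10.

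The remaining 149 members were listed in stressed 6 and 7 and in neither stressed 8 nor 9. On chromosomes 1 to 3 those inside genes lay in SGIP1, TGFBR3, DCLRE1B, RABGAP1L, FAM20B, NFASC, RYR2, SDCCAG8, NBAS, CRIM1, ADD2, FAM178B, KCNH7, CALCRL, TGFBR2, CMTM8, FHIT, LSAMP, KALRN, TF and IGF2BP2. Members outside coding genes there lay nearest to ZRANB2, PTGFR, COL24A1, TSEN15, HHIPL2, TP53BP2, FAM98A, ATL2, EFEMP1, VRK2, ATIC, CMTM7, GBE1, EPHA3, CD96, IGSF11, SPSB4 and NAALADL2. On chromosomes 4 to 7 those inside genes lay in GPRIN3, MAML3, LRBA, TMEM131L, GALNTL6, DAP, TRIO, GCNT4, EFNA5, ABLIM3, EYS, CD109, FBXL4, GRIK2, SLC35F1, CDK14 and CUX1. Members outside coding genes there lay nearest to RAB28, LCORL, SOD3, NDST3, SPRY1, GAB1, CLDN24, CDH9, TARS1, CAPSL, CARTPT, ZNF366, ARHGEF28, SLCO4C1, RNGTT, EPHA7, OSTM1, NMBR, LOC124901649 and ZNF804B. On chromosomes 8 to 12 those inside genes lay in POFUT3, CHD7, DECR1, SAMD12, ST3GAL1, PLPPR1, PALM2AKAP2, WHRN, TTLL11, FRMD4A, FAM171A1, PBLD, ZMIZ1, LIPK, BTRC, AMPD3, ABTB2, MS4A10, DLG2, MAML2, PIK3C2G, PPM1H and PAWR. Members outside coding genes there lay nearest to ADAM7, ZHX2, TLR4, RASGEF1A, SORCS1, CHRNA10, TYR, CACNA2D4 and LOC107984449. On chromosomes 13 to 22 and X those inside genes lay in OCA2, GTF3C1, CMIP, LINC02210-CRHR1, NOL4, LOXHD1, DCC, CFAP61, APP, DSCAM, NBDY, DACH2 and CD40LG. Members outside coding genes there lay nearest to LOC124903233, DIAPH3, KLHL1, KLF5, OR4E1, DAAM1, SLC38A6, RHCG, RGMA, TP53TG3F, CDH11, PIRT, AQP4, CDH2, SALL3, SIRPA, KCNG1, MRPL39, BACH1 and APLN. Within this group, CARTPT, EPHA3 and LOC124903233 were each nearest to a pair of members, and CFAP61 held a pair.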

How the data were processed

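ATAC-seq peak lists of 7 libraries were used as deposited. Peaks were called with MACS2 for each library separately, per the file headers; the submitters' processing notes name hg38, FastQC, Bowtie2 and Picard. The sources used here give no caller settings, read totals or Tn5 shift. The deposited lists give each peak's score, its fold enrichment at the summit over background (a ratio) and its −log10 p-value and −log10 q-value. Folds of different libraries are not on 1 scale, so they ranked regions within a list. Every fold lay on a grid of (fragments + 1)/(background + 1) with 1 background per library (100% whole within 0.02), which gave fragments at the summit.

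Overlapping peaks on chromosomes 1 to 22 and X were merged, leaving out 29 to 54 peaks per library, and the 32828 regions of highest fold, the length of the shortest list, were kept, with ties ordered by width and position. Union regions joined regions that shared at least 1 bp. Positions are 1-based; genes are the 19974 protein-coding genes of RefSeq on GRCh38.p14. A region is called by the gene that holds its midpoint or else by the nearest end. Named are the 12 best-ranked members, those at gene ends, absent from stressed deposited lists, assigned to 15 lists of 346 genes, clustered or next to a limit; IGF2BP2, CMIP, EPHA3, LOC124903233, the RFX4 region, those of low stressed rank and those in all 4 stressed lists were chosen after their values were seen. The genes of 4 members are not reported here. Members and lists were chosen with earlier results of these data known. Library values were compared by a two-sided exact permutation test. The sample titles give both treatments differentiation numbers 6 to 8 and the design text speaks of separate batches, so a shared number was read as a shared batch, which gives the pairing; the titles do not say so outright. The overlap rule was tested on simulated data and against bedtools 2.31.1. Python 3.11.15, numpy 2.4.6, pandas 2.3.3, scipy 1.17.1 and matplotlib 3.10.9 were used.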

Additional observations from a re-analysis of the deposited data

How the results depend on the processing

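Ranking by −log10 p gave the same 231 members by construction, since each library has 1 background and both columns then order its regions alike; it is no check. Their number was 204 when a library had to cover 25% of a union region, 272 with summits widened by 100 bp either way, 246 with −log10 q of at least 5 (4 of the 231 overlapped), 132 at 25% of the list length and 373 at equal span, where lists of 14.9 Mb were compared and 0 of the 231 overlapped. Equal span and the lengths of 25%, 37.5%, 62.5% and 87.5% were chosen after the data were seen. Leaving out 1 library gave 269 to 856 members, the most without vehicle 7; it was 361 without stressed 7, 482 without vehicle 6 and 567 without vehicle 8. Members at a gene end numbered 7 in the report, 7 to 26 with 1 library left out, 31 with summit windows, 4 with −log10 q of at least 5, 13 at 25% of the length, 25 at equal span and 11 with a window of 2500 bp. Members over 100 kb from every gene end numbered 80, 95 to 330 with 1 library left out, 45 at 25% of the length and 128 at equal span. Members in no stressed deposited list numbered 1, 1 to 7 with 1 library left out, 46 with summit windows, and 0 with −log10 q of at least 5, at 25%, 37.5%, 50% and 62.5% of the length and at equal span. With the replicate block, which drops stressed 9, members numbered 272, of which 7 lay at a gene end, 98 over 100 kb away and 1 in no stressed deposited list. The share difference at gene ends was 2.38 percentage points with summit windows (exact permutation p = 0.0857), 18.1 at equal span (p = 0.0857), 6.07 at 50% of the length and 6.76 with −log10 q of at least 5 (p = 0.0286 each), 3.17 with the replicate block and 2.33 to 3.84 with 1 library left out. The distal share difference was -6.78 at equal span (exact permutation p = 0.0571), -3.71 with the replicate block and -4.62 to -1.85 with 1 library left out. Both reversed in the lists as deposited, to -5.09 (exact permutation p = 0.6) and 0.582 (p = 0.914); the cause was not tested. No median width difference passed, at 52.2 to 614 bp over the alternatives. With 1 library left out no test can pass. Depth limits the shallow libraries, where a list place can rest on 5 to 7 fragments.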
